A study of Mus musculus with 8 samples.

Results

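The dual-specificity phosphatases that act on MAP kinases were followed in mouse embryonic stem cells on 8 Agilent arrays of 1 colour. The 10 genes were Dusp1, Dusp2, Dusp4, Dusp5, Dusp6, Dusp7, Dusp9, Dusp10, Dusp14 and Dusp16. They were found by matching each probe's RefSeq accession to these gene symbols, which gave 11 of 55681 non-control probes, and 10 of 20972 genes with a symbol. All 10 passed the filter on dim probes, and Dusp16 was measured by 2 probes. The medium of every group held LIF, the cytokine that maintains the undifferentiated state, and 250 nM PD173074, which blocks FGF receptors. One group, 8h-2h, received 250 nM 4OHT (4-hydroxytamoxifen) for 8 h, followed by 2 h with 1 µM PD0325901, which blocks MEK, the kinase that activates ERK. The others were untreated cells (0h) and cells given 250 nM 4OHT for 8 h (8h) or 10 h (10h), with 2 arrays in each of the 4 groups. No group is labelled as a vehicle or time-matched control for 4OHT. In comparisons with 0h, vehicle and time in culture therefore cannot be told apart from 4OHT. 4OHT is a ligand used to activate fusion proteins that carry an altered oestrogen receptor domain, yet neither such a protein nor the cell line is named in the labels. The sample titles carry the words pulse and chase, and the labels leave unsaid whether 4OHT was still present during the 2 h with PD0325901. If it was removed, its removal and the inhibitor cannot be told apart in 8h-2h cells. The series title names the dependence of the transcriptome on Erk as its subject.

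Dual-specificity phosphatases remove the phosphates from both the threonine and the tyrosine of the activation loop of a MAP kinase and so switch it off. Several of their genes are themselves transcribed in response to ERK, which makes them a classical negative feedback. Dusp1, Dusp2, Dusp4 and Dusp5 encode inducible nuclear enzymes, of which Dusp5 is selective for ERK. Dusp6, Dusp7 and Dusp9 encode cytoplasmic enzymes that prefer ERK, Dusp10 and Dusp16 encode enzymes that act on JNK and p38, and Dusp14 encodes a small atypical enzyme that lacks the docking domain of the others. In embryonic stem cells ERK activity downstream of FGF favours exit from naive pluripotency.

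Values are log2 processed signals relative to the 75th percentile of the array, so a level of 0 is the signal of that percentile, and a level is compared only with other levels of the same probe. A change is the difference of 2 group means on the log2 scale, given with its standard error from limma after ±, and a gene called is one with a Benjamini-Hochberg adjusted p under 0.05 over all genes tested. The arrays held 30218 to 37789 spots well above background and 0 saturated spots, and replicates of a group correlated at 0.992 to 0.9934 across genes. The design text gives the 2 arrays of a group as biological replicates. With 2 arrays a group the number of arrays limits the precision. The p-values reflect only how far these samples spread, and that spread may be partly technical. All 11 markers of embryonic stem cells were above background on every array. In 8h cells relative to untreated cells Dppa4 (0.95 ± 0.08) and Utf1 (0.93 ± 0.08) were higher, Nanog (-2.59 ± 0.19) was lower and 8 of the 11 were not called (median 0.06). The summed signal of 9 trophoblast markers was 43.4 to 45.5 in 8h-2h cells, against 15.9 to 18.4, 36.2 to 42.3 and 50.4 to 64.0 in 0h, 8h and 10h cells, in multiples of the array's 75th percentile, with 7 to 9 of the 9 above background on an array. Of the 8 trophoblast markers tested, 4 rose at 8 h, among them Cdx2 (6.37 ± 0.43) and Krt18 (1.70 ± 0.18). Tfap2c fell and 3 were not called (median 1.43). For 9 fibroblast markers, with 4 to 7 above background, the sum was 69.5 to 84.3 in 8h-2h cells, against 43.6 to 44.3, 84.6 to 104.6 and 85.5 to 104.7 in the same order. Of the 5 fibroblast markers tested, Thy1 (3.49 ± 0.60) and Vim (0.72 ± 0.07) were higher at 8 h, 2 were called higher and 2 lower at 10 h, and the median was -0.27 at 8 h and -0.46 at 10 h. The defining fibroblast markers Col3a1, Lum, Dcn and Postn were too dim to be tested. The sums for 9 primitive endoderm markers were 44.3 to 88.6 in 8h-2h cells, against 36.0 to 67.0, 28.02 to 60.55 and 30.5 to 62.1, with 6 to 9 above background. The part of these markers in the phosphatase results was not tested, and in bulk RNA fewer cells of a type and less RNA per cell cannot be told apart.

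To show the regulatory sequence in front of the genes whose change was called in the same direction at 8 h and 10 h, the 250 bases before the transcription start are given for Dusp1, Dusp2, Dusp5, Dusp6, Dusp7 and Dusp16, from RefSeq on build GRCm38.p6, 5′ to 3′ on the strand of the gene. The table used held entries for 8 of the 10 genes, and Dusp4 and Dusp9 are named only. Capitals mark matches to motifs of factors that ERK and stress kinases are known to act on.
Dusp1, chr17:26508473-26508722 (minus strand): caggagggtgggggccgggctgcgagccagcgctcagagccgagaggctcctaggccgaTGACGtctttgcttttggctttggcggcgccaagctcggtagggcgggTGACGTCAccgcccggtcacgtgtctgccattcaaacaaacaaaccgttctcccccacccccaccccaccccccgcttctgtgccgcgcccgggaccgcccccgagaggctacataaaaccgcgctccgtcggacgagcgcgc
Dusp2, chr2:127335909-127336158 (plus strand): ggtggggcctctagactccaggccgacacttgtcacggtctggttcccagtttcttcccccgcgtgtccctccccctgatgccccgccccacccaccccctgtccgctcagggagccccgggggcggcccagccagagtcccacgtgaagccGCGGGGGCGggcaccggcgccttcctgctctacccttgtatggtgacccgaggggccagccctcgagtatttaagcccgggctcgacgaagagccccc
Dusp5, chr19:53528895-53529144 (plus strand): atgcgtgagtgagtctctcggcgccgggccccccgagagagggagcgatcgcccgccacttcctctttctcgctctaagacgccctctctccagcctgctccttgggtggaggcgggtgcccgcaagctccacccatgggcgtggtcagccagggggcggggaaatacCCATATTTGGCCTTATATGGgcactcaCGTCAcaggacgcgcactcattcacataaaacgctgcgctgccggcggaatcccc
Dusp6, chr10:99262981-99263230 (plus strand): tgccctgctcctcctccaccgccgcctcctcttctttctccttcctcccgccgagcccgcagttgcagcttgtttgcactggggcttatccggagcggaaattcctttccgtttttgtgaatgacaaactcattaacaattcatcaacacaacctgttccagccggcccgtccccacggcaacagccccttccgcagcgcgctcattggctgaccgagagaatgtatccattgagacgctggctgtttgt
Dusp7, chr9:106368382-106368631 (plus strand): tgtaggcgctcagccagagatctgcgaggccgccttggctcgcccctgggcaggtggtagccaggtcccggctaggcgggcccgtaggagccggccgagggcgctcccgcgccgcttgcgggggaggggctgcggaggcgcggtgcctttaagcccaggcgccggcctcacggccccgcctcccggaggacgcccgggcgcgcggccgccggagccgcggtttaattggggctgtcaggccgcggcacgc
Dusp16, chr6:134792629-134792878 (minus strand): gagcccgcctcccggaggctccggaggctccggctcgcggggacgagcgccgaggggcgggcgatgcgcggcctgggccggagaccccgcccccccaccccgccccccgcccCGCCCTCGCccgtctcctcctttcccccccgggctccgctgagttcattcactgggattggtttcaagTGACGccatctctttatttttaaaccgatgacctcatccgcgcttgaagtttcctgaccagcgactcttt

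The motifs searched, on both strands, were the CArG box bound by SRF, the cyclic AMP response element TGACGTCA and its core TGACG, the AP-1 site TGANTCA, the ETS site CCGGAA and the EGR site GCGNGGGCG. The Dusp5 window held 2 adjacent CArG boxes, from 82 to 73 and from 72 to 63 bases before the start, a motif present in 1.47% of the 32851 windows of the same length. The Dusp1 window held TGACGTCA from 143 to 136 bases before the start, which 1.55% of windows hold, and a further TGACG from 191 to 187. The core TGACG overlaps the full element and was present in 17.8% of windows. It was also found 70 to 66 bases before the start of Dusp16 and, on the other strand, 55 to 51 bases before that of Dusp5. The EGR site, in 4.7% of windows, was matched 98 to 90 bases before the start of Dusp2 and, on the other strand, 138 to 130 bases before that of Dusp16. The windows of Dusp6 and Dusp7 held none of the 6 motifs as spelled, and the AP-1 and ETS sites, in 6.75% and 12% of windows, were in none of the 6 windows shown. A match is a description of these letters and not a site of binding.

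Among the 10 phosphatase genes, 5 rose and 2 fell in 8h cells relative to untreated cells, against a background of 21.7% of 22686 genes called in either direction (10.3% higher and 11.5% lower). The 5 that rose were the 4 nuclear inducible genes Dusp1, Dusp2, Dusp4 and Dusp5, and Dusp6 among the 3 cytoplasmic genes. The median change of the 10 genes was 0.92, beside -0.04 for all genes tested. The comparison of 10h cells gave 5 genes higher and 2 lower, with a median of 1.01, beside -0.05 for all genes and a background of 27.9% called (13.1% higher and 14.8% lower). Both comparisons use the same 2 untreated arrays. With 2 arrays a group, lack of overlap is common: 63.7% of all genes did not overlap between 8h and untreated cells. Between 10h and untreated cells the share was 68.7%.

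Dusp1, the immediate-early phosphatase of ERK, JNK and p38, had levels of 2.55 and 2.50 in 8h cells and 2.70 and 2.80 in 10h cells, against 0.53 and 0.79 in untreated cells. The groups did not overlap, and the gene rose by 1.87 ± 0.10 at 8 h (3.65-fold, adjusted p = 0.000465, limma) and by 2.09 ± 0.10 at 10 h (4.25-fold, adjusted p = 0.000278). Dusp2, a nuclear phosphatase first described in immune cells, had levels of 0.84 and 1.03 in 8h cells and 0.71 and 1.58 in 10h cells, against -2.19 and -2.02 in untreated cells. Every treated array lay above both untreated arrays, and the 2 arrays at 10 h stood further apart than those of any other group. The change was 3.04 ± 0.28 at 8 h (8.24-fold, adjusted p = 0.00187) and 3.25 ± 0.28 at 10 h (9.53-fold, adjusted p = 0.00124).

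Dusp4, a nuclear phosphatase of ERK and JNK, had levels of 2.62 and 2.92 in 8h cells and 2.64 and 3.05 in 10h cells, against -1.36 and -1.38 in untreated cells. Its change of 4.14 ± 0.21 at 8 h (17.6-fold, adjusted p = 0.000346) was followed by 4.21 ± 0.21 at 10 h (18.6-fold, adjusted p = 0.000261). With the reported background correction Dusp5 moved about as far, from a probe that was dim before treatment. Its levels were -0.71 and -0.81 in 8h cells and -0.47 and -0.13 in 10h cells, against -4.59 and -4.78 in untreated cells, where 1 of the 2 arrays was well above background. Its processed signal was 205.3 and 209 units at 8 h and 239 and 302.8 units at 10 h, against 16.26 and 12.71 units in untreated cells. The log2 change was 3.93 ± 0.13 at 8 h (15.2-fold, adjusted p = 0.000206) and 4.39 ± 0.13 at 10 h (21.0-fold, adjusted p = 0.000108). Because the untreated signal was near background, the size of this rise depended on the background correction: with normexp it was 1.80 at 8 h (adjusted p = 8.8e-05) and 2.16 at 10 h (adjusted p = 3.6e-05). Dusp2 had changes of 2.31 and 2.45 with normexp and stayed called at both times. The Dusp4 rise at 8 h stayed between 3.63 and 4.29 over the alternative settings.

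Dusp6, the cytoplasmic ERK phosphatase most used as a readout of FGF and ERK signalling, had processed signals of 26810 and 28040 units at 8 h and 27450 and 28300 units at 10 h, against 4238 and 3851 units in untreated cells. The corresponding levels were 6.32 and 6.26 in 8h cells and 6.38 and 6.42 in 10h cells, against 3.43 and 3.46 in untreated cells. Treated and untreated arrays did not overlap. Dusp6 rose by 2.84 ± 0.09 at 8 h (7.16-fold, adjusted p = 0.00019) and by 2.95 ± 0.09 at 10 h (7.73-fold, adjusted p = 0.000108). The rises of Dusp1, Dusp2, Dusp4 and Dusp6 at both times were called under all 20 alternative settings, and those of Dusp5 under the 19 that kept its probe.

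**Figure D1:**
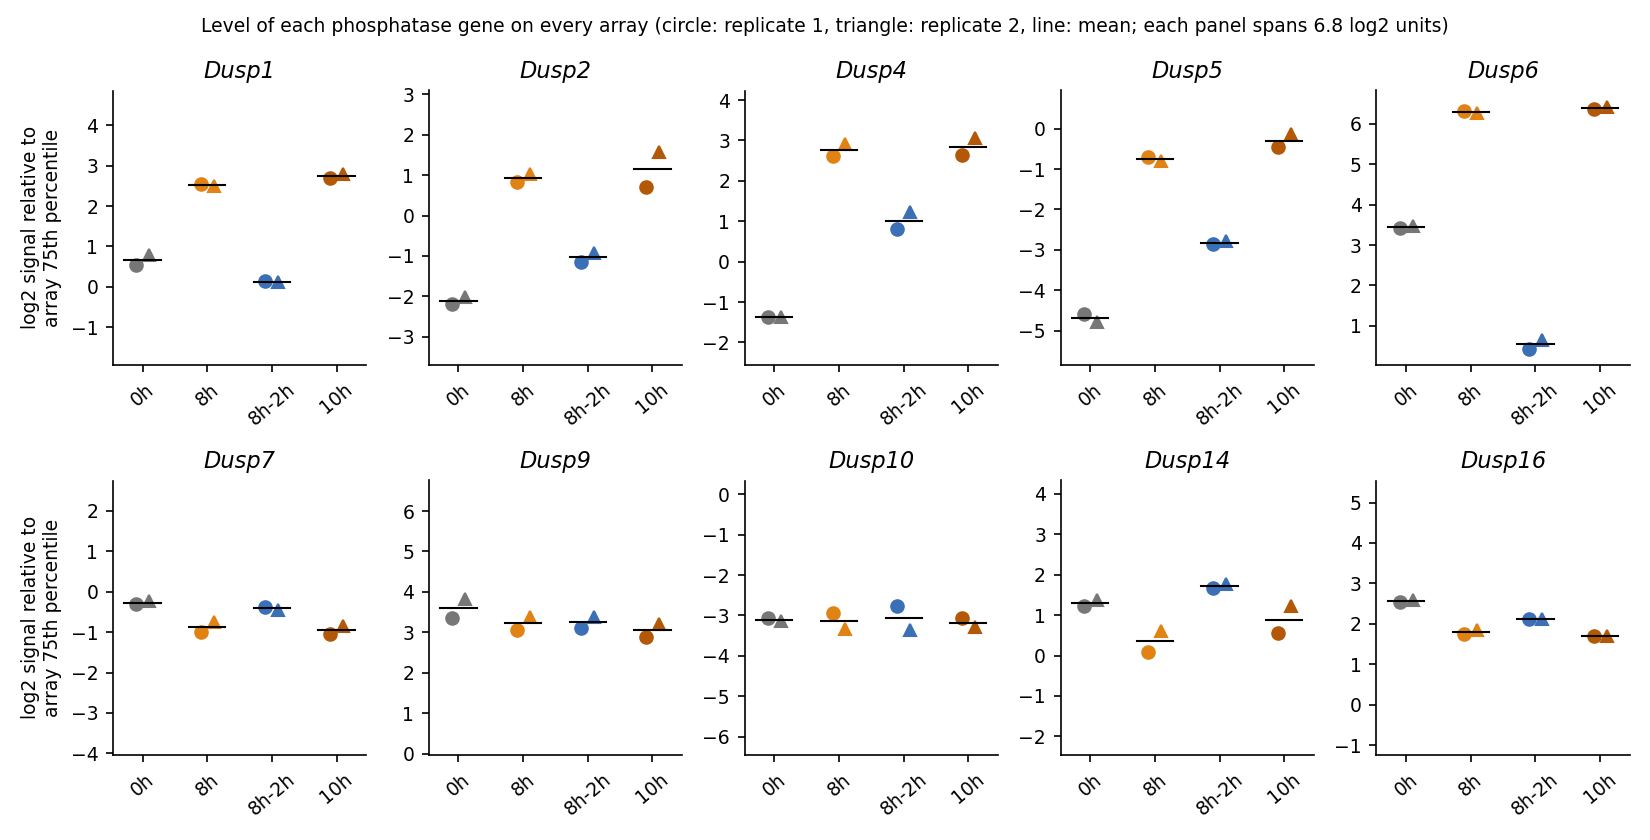
Log2 signal of each phosphatase gene relative to the array's 75th percentile (vertical axis) in the 4 groups (horizontal axis), with a circle for replicate 1, a triangle for replicate 2 and a line at the mean. Panels share 1 span but not 1 origin, so only levels within a panel can be compared. Dusp6 in 8h-2h cells lies at 0.43 and 0.65, below its untreated arrays at 3.43 and 3.46.

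Of the other cytoplasmic genes, Dusp7 fell and Dusp9 was not called. Dusp7 had levels of -0.99 and -0.75 in 8h cells and -1.06 and -0.86 in 10h cells, against -0.31 and -0.24 in untreated cells. It fell by 0.59 at 8 h (SE 0.12, adjusted p = 0.0197) and by 0.68 at 10 h (SE 0.12, adjusted p = 0.0103), with no overlap between treated and untreated arrays. The call at 8 h was lost with no filter on dim probes (adjusted p = 0.0746, limma) or only the groups compared (0.062). It was also lost without 0h replicate 1 (difference -0.63), 0h replicate 2 (-0.55) or 8h replicate 1 (-0.47). The call at 10 h was lost without 0h replicate 2 (-0.64) or 10h replicate 1 (-0.58). Dusp9, an X-linked ERK phosphatase abundant in mouse embryonic stem cells, had levels of 3.06 and 3.38 in 8h cells and 2.89 and 3.21 in 10h cells, against 3.36 and 3.82 in untreated cells. Its arrays overlapped at 8 h, and the differences of -0.37 ± 0.21 (95% confidence interval -0.90 to 0.16, adjusted p = 0.274) and -0.54 ± 0.21 (-1.06 to -0.01, adjusted p = 0.115) did not pass the threshold. Replicate 1 lay below replicate 2 in every group, and the difference within replicate numbers 1 and 2 was -0.30 and -0.45 at 8 h.

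Of the 2 genes for phosphatases of JNK and p38, Dusp16 fell at both times and Dusp10 passed the test at neither. The brighter Dusp16 probe had levels of 1.75 and 1.84 in 8h cells and 1.71 and 1.70 in 10h cells, against 2.55 and 2.60 in untreated cells. It fell by 0.77 at 8 h (SE 0.07, adjusted p = 0.00165) and by 0.87 at 10 h (SE 0.07, adjusted p = 0.000904), calls kept under all 20 alternative settings. The dimmer probe, in a fit of each probe on its own, gave differences of -0.68 at 8 h (adjusted p = 0.00623) and -0.70 at 10 h (adjusted p = 0.00463), so both probes had the same direction. Dusp10 had levels of -2.93 and -3.34 in 8h cells, against -3.07 and -3.15 in untreated cells, and its difference of -0.03 ± 0.24 had an interval of -0.62 to 0.56 (adjusted p = 0.949). That interval excludes a rise of the size seen for the 5 rising genes. The atypical Dusp14 had levels of 0.09 and 0.61 in 8h cells and 0.55 and 1.22 in 10h cells, against 1.21 and 1.38 in untreated cells. Its difference was -0.94 ± 0.27 at 8 h (interval -1.60 to -0.29, adjusted p = 0.0564) and -0.41 ± 0.27 at 10 h (adjusted p = 0.291). The 8 h difference lay just outside the threshold and passed it in 6 of 20 alternative settings (adjusted p between 0.0136 and 0.0414), among them the removal of 10h replicate 1 or 10h replicate 2 (0.0353 each).

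Over the last 2 h with 4OHT and no inhibitor, 10h cells against 8h cells, 0 of the 10 genes were called by limma, beside 0% of 22686 genes (1499 had an unadjusted p under 0.05, as had 1 of the 10, Dusp5). The 10 genes had a median difference of 0.09, and all genes tested one of 0.00. Dusp5 had the smallest p of the 10, with a difference of 0.47 ± 0.13 (interval 0.13 to 0.80, adjusted p = 0.64). The difference of Dusp6 was 0.11 ± 0.09 (adjusted p = 0.886) and that of Dusp1 was 0.22 ± 0.10 (adjusted p = 0.787).

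**Figure D2:**
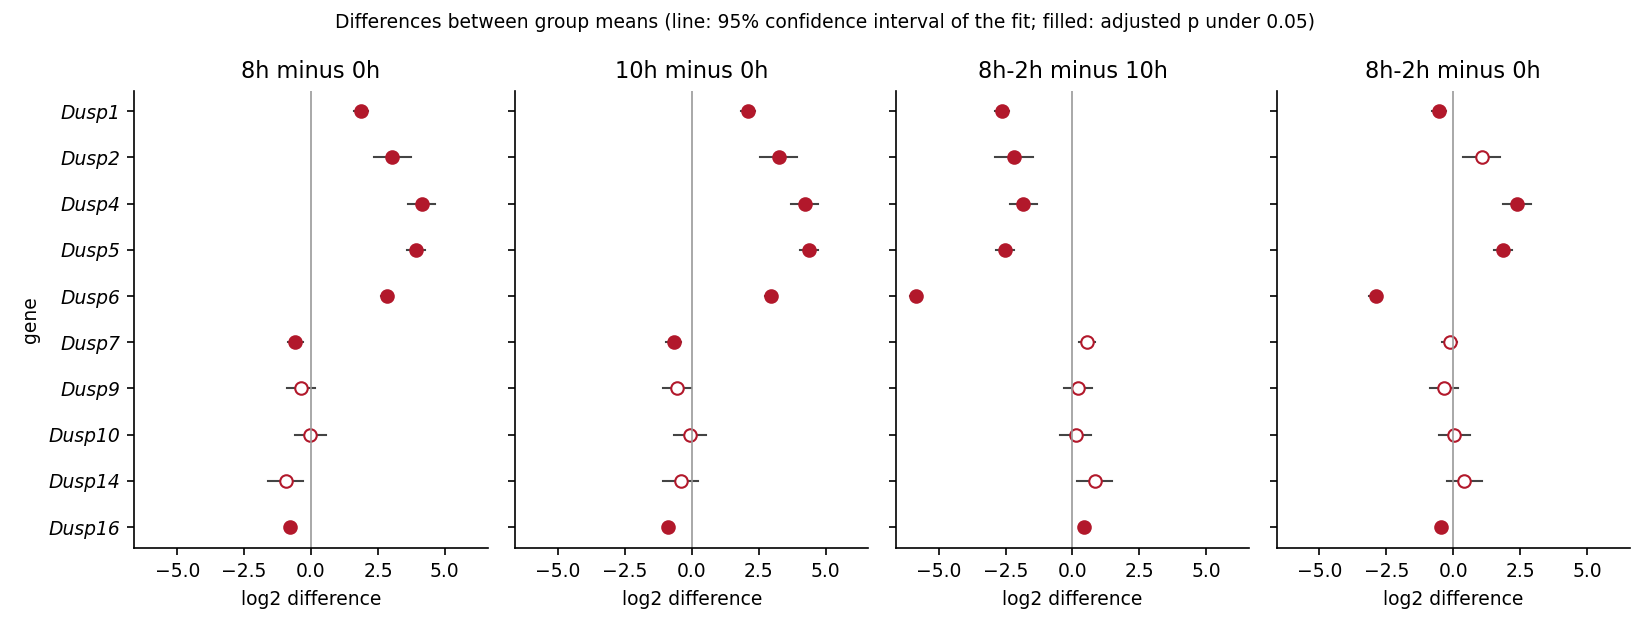
Log2 difference between group means for each phosphatase gene (horizontal axis) in 4 comparisons, with lines for the 95% confidence interval of the limma fit and filled points where the adjusted p was under 0.05. Dusp6 stands at -5.85 in 8h-2h minus 10h, while Dusp9, Dusp10 and Dusp14 have open points in all 4 panels.

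With 2 h of PD0325901, 5 of the 10 genes fell and 1 rose relative to 10h cells, which had the same time since 4OHT was added, against a background of 6.12% of 22687 genes called (3.24% higher and 2.87% lower). The 5 that fell were the same 5 that had risen with 4OHT. The 10h arrays enter both comparisons. The median difference of the 10 genes was -0.86, beside -0.04 for all genes tested. Against 8h cells, the group at the start of the inhibition, 5 genes were also lower and 1 was higher, where 6.52% of genes were called (3.4% higher and 3.11% lower). The median there was -0.87, beside -0.04 for all genes.

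Dusp6 had the smallest p of all 22687 genes in this comparison. Its processed signal was 417.6 and 525 units in 8h-2h cells, against 27450 and 28300 units in 10h cells. The log2 difference was -5.85 ± 0.09 (adjusted p = 5.27e-05, limma), which leaves 1.73% of the 10h signal (1.62% and 1.84% within replicates 1 and 2), a 57.8-fold lower level. In that comparison 2 genes had a lower log2 difference. Relative to 8h cells the difference was -5.74 ± 0.09 (adjusted p = 5.88e-05), and 4 genes had a lower value.

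Among the nuclear genes, Dusp1 had levels of 0.15 and 0.12 in 8h-2h cells, against 2.70 and 2.80 in 10h cells, a difference of -2.62 ± 0.10 (adjusted p = 0.00073) that leaves 16.3% of the signal. Dusp5 had levels of -2.86 and -2.79, against -0.47 and -0.13 in 10h cells, a difference of -2.53 ± 0.13 (adjusted p = 0.0014) that leaves 17.4%. With normexp the difference of Dusp5 was -1.55. Both genes stayed called relative to 10h and 8h cells whichever array was left out.

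Dusp2 had levels of -1.14 and -0.93 in 8h-2h cells, against 0.71 and 1.58 in 10h cells. Its difference was -2.18 ± 0.28 (adjusted p = 0.0141), with 27.6% of the signal left in replicate 1 and 17.5% in replicate 2. The call was lost with no filter on dim probes (adjusted p = 0.0626, limma) or only the groups compared (0.0931). It was also lost without 8h-2h replicate 1 (difference -2.08) or 8h-2h replicate 2 (-2.29). Dusp4 had levels of 0.80 and 1.22 in 8h-2h cells, against 2.64 and 3.05 in 10h cells, a difference of -1.83 ± 0.21 (adjusted p = 0.00982) with 27.9% and 28.2% left. That call was lost with only the groups compared (adjusted p = 0.0701, limma). It was also lost without 10h replicate 2 (difference -1.63) or 8h-2h replicate 1 (-1.62). For both genes the arrays of the 2 groups did not overlap, as was so for 52.2% of all genes. Relative to 8h cells Dusp1 fell by 2.40 (adjusted p = 0.000914), Dusp2 by 1.97 (0.018), Dusp4 by 1.76 (0.0106) and Dusp5 by 2.06 (0.00217). In that comparison the Dusp2 call was lost with no filter on dim probes (adjusted p = 0.0717, limma). It was also lost without either 8h array (differences -2.07 and -1.88 for replicates 1 and 2) or either 8h-2h array (-1.87 and -2.08). The Dusp4 call was lost with only the groups compared (adjusted p = 0.0639), and without 8h replicate 2 (difference -1.61) or 8h-2h replicate 1 (-1.545).

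Of the genes that were lower in 8h and 10h cells than in untreated cells, Dusp16 was called higher with the inhibitor and Dusp7 was not called. Dusp16 had levels of 2.11 and 2.12 in 8h-2h cells, against 1.71 and 1.70 in 10h cells, and rose by 0.41 ± 0.07 (1.33-fold, adjusted p = 0.0289). This call was lost in 12 of 20 alternative settings, among them the removal of any 1 of the 8 arrays (adjusted p between 0.0539 and 0.156), and the dimmer probe had a difference of 0.23 (adjusted p = 0.226). Dusp7 had levels of -0.37 and -0.46, against -1.06 and -0.86 in 10h cells, a difference of 0.54 ± 0.12 (interval 0.26 to 0.83) just outside the threshold (adjusted p = 0.0576). Dusp14 had levels of 1.67 and 1.77 in 8h-2h cells, against 0.09 and 0.61 in 8h cells and 0.55 and 1.22 in 10h cells. It was called relative to 8h cells (1.37 ± 0.27, 2.58-fold, adjusted p = 0.042) and not relative to 10h cells (0.83 ± 0.27, adjusted p = 0.152), while 10h and 8h cells themselves differed by 0.53 ± 0.27 (adjusted p = 0.8). Removing either array of the 0h, 8h or 8h-2h group ended the call (adjusted p between 0.0803 and 0.165). Dusp9 (0.19 ± 0.21, adjusted p = 0.66) and Dusp10 (0.12 ± 0.24, adjusted p = 0.827) were not called relative to 10h cells.

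The level reached after inhibition, set against untreated cells, separated the 5 induced genes. In all, 2 of the 10 genes were higher in 8h-2h cells than in untreated cells, 3 were lower and 5 were not called, against a background of 15.9% called (7.06% higher and 8.8% lower). The median was -0.04, beside -0.07 for all genes. Dusp6 ended at levels of 0.43 and 0.65, against 3.43 and 3.46 in untreated cells, a difference of -2.90 ± 0.09 (adjusted p = 0.000261) that leaves 13.4% of the untreated signal, and 7 genes had a lower value. Dusp1 ended at 69.3% of the untreated signal (76.5% and 62.7% within replicates), a difference of -0.53 ± 0.10 (adjusted p = 0.0268). The call for Dusp1 was lost with no filter on dim probes (adjusted p = 0.104, limma) or only the groups compared (0.0998). It was also lost without 0h replicate 2 (difference -0.40), either 8h array (-0.53), 8h-2h replicate 1 (-0.54) or 8h-2h replicate 2 (-0.52).

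Dusp4 and Dusp5 stayed above their untreated levels. Dusp4 was 5.21-fold higher in 8h-2h cells than in untreated cells (2.38 ± 0.21, adjusted p = 0.00299), and Dusp5 was 3.64-fold higher (1.86 ± 0.13, adjusted p = 0.00183), or 0.61 on the log2 scale with normexp (adjusted p = 0.0109). Dusp2 was at 209.8% of its untreated signal, a difference of 1.07 ± 0.28 that missed the threshold (adjusted p = 0.0572) and passed it in 8 of 20 alternative settings, among them the removal of 10h replicate 1 or 10h replicate 2 (0.0153 each). As a share of the log2 rise at 10 h, 56.5% was left for Dusp4 (54.0% and 58.8% within replicates), 42.5% for Dusp5 (42.0% and 42.9%) and 32.9% for Dusp2 (36.1% and 30.3%). The share of Dusp5 depends on its near-background untreated signal. With normexp 0.61 was left of a Dusp5 rise of 2.16, so its share is not read as larger than that of Dusp2. Of the genes that fell with 4OHT, Dusp16 was at 72.9% of its untreated signal (-0.46 ± 0.07, adjusted p = 0.0127). That call was lost with median centring (-0.34, adjusted p = 0.0582, limma), no filter on dim probes (0.0726) or only the groups compared (0.0774). It was also lost without 0h replicate 2 (difference -0.43), 8h-2h replicate 1 (-0.45) or 8h-2h replicate 2 (-0.46). Dusp7 differed from untreated cells by -0.14 ± 0.12 (interval -0.42 to 0.15, adjusted p = 0.469).

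**Figure D3:**
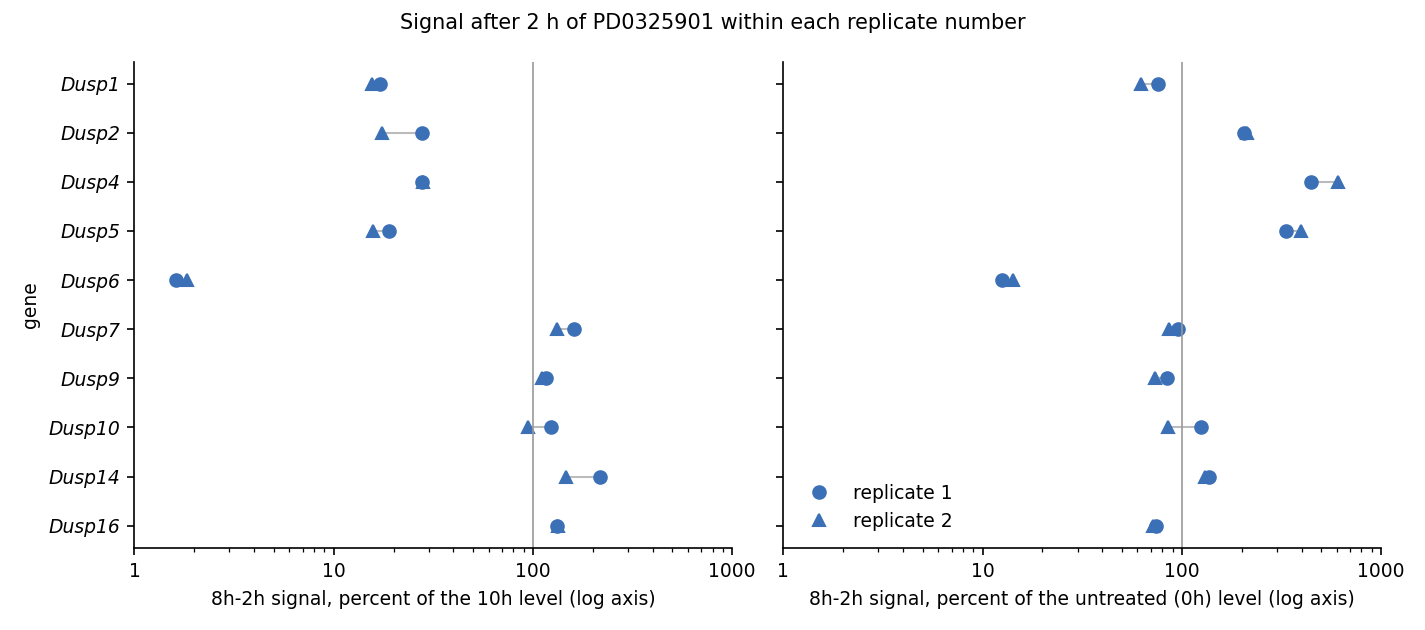
Signal of each phosphatase gene in 8h-2h cells as a percent of the 10h level (left panel) and of the untreated level (right panel), on log axes, with a circle for replicate 1 and a triangle for replicate 2 and a vertical line at 100%. Dusp6 lies at 1.73% of the 10h level and 13.4% of the untreated level. In the right panel both points of Dusp2, Dusp4, Dusp5 and Dusp14 lie right of the line, and of these Dusp4 and Dusp5 were called higher.

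In order of their group means, the genes fell into a few patterns. For Dusp6 and Dusp1 it was 8h-2h below 0h below 8h and 10h, the last pair not differing by the test. For Dusp4 and Dusp5 it was 0h below 8h-2h below 8h and 10h, and Dusp2 had the same order of means with 8h-2h and 0h not separated by the test. For Dusp16 it was 10h and 8h below 8h-2h below 0h, with 8h-2h not separated from 8h by the test (0.32 ± 0.07, adjusted p = 0.0567). For Dusp7 it was 10h and 8h below 0h, with 8h-2h separated by the test from none of them. For Dusp14 it was 8h, 10h, 0h and 8h-2h, of which the test separated only 8h and 8h-2h, and for Dusp9 and Dusp10 the test on group means separated no pair of groups.

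The genes with the nearest profiles were found by the root mean square (RMS) over the 8 arrays of the difference between log2 profiles, each set to 0 at its untreated mean, among 14478 genes with a symbol. Distances between profiles of small range are small by construction, so they are read within a member. Nearest to Dusp6 was Myc (RMS 0.36), a transcription factor gene, followed by Gbx2 (0.66) and Spry4 (0.73), an inhibitor of receptor tyrosine kinase signalling. Their mean differences between 8h-2h and untreated cells were -2.81, -1.65 and -4.26, beside -2.90 for Dusp6. The Spry4 probe was well above background on 1 of the 2 8h-2h arrays, and its value ran between -1.97 and -4.45 over the alternative settings. Nearest to Dusp1 were Zfp36l2 (0.16), Trib1 (0.17) and Lpar6 (0.20), with 8h-2h differences from untreated cells of -0.57, -0.39 and -0.31.

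Nearest to Dusp5 was Fosl1 (0.09), which encodes the AP-1 subunit FRA1. Fosl1 had mean differences from untreated cells of 3.94 at 8 h, 4.38 at 10 h and 1.75 in 8h-2h cells, where Dusp5 had 3.93, 4.39 and 1.86. The Dusp5 probe was near background in untreated cells, and the distances were taken in the reported setting only. Over the alternative settings the Dusp5 rise at 8 h ran from 1.80 to 4.06. That of Fosl1 ran from 2.49 to 4.13 and that of Dusp4 from 3.63 to 4.29. Dusp4 and Dusp5 were among each other's nearest 3 (0.33), each with 9330159F19Rik (0.20 from Dusp4 and 0.31 from Dusp5), and the third for Dusp4 was Esam (0.33). Dusp2 had Arc (0.27), Mfap3l (0.34) and Slc35d3 (0.35) nearest. For Dusp14 they were Pdgfc (0.17), Nr2c1 (0.19) and Bbc3 (0.19). For the genes of small range the nearest was Cep250 for Dusp7 (0.07), Ccdc106 for Dusp9 (0.06), Syngr4 for Dusp10 (0.06) and Tapbp for Dusp16 (0.05).

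**Figure D4:**
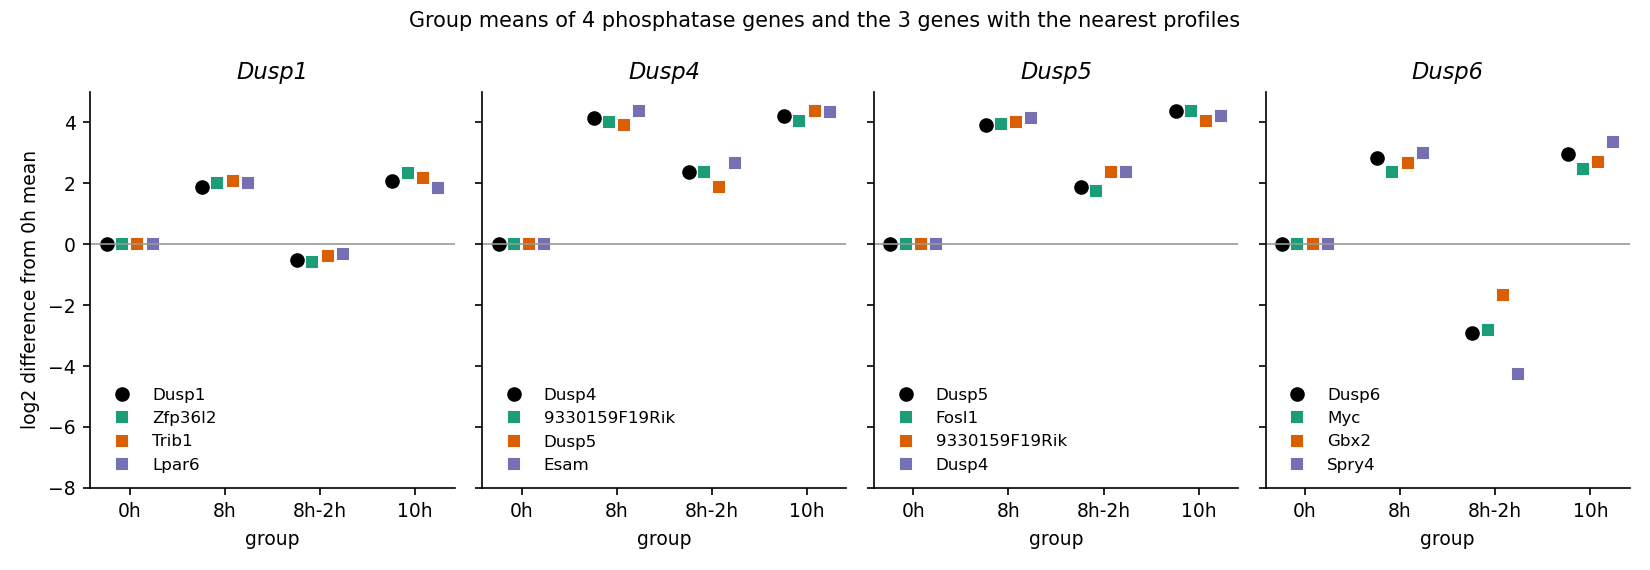
Mean log2 difference from untreated cells (vertical axis) in the 4 groups (horizontal axis) for Dusp1, Dusp4, Dusp5 and Dusp6 (black circles) and the 3 genes nearest to each (squares). The mean of Dusp1 and its neighbours in 8h-2h cells lies just below 0, that of Dusp4 and Dusp5 between 0 and their 10h level, and that of Dusp6 at -2.90.

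The other genes of the pathway are described by counts, without a test of any list. Of 18 tested genes of ERK feedback and response other than phosphatases, 15 rose and 1 fell at 8 h (median 1.75), where 21.7% of all genes were called. The fall was lost in 10 of 20 alternative settings, and so was the least stable of the rises. In 8h-2h cells relative to 10h cells 12 of the 18 were lower and 6 were not called (median -1.78), where 6.12% of all genes were called. Spry4 had the smallest p of that list under inhibition, with -7.62 ± 0.16 relative to 10h cells (adjusted p = 0.000118), a value between -5.06 and -7.80 over the alternative settings. Relative to 10h cells Myc fell by 5.26 (adjusted p = 0.00028), and Spry2 fell by 2.94 (adjusted p = 0.000358). Of 12 tested other members of the dual-specificity family, 3 rose, 1 fell and 8 were not called at 8 h (median 0.11), which is read against the same 21.7%. Dusp28 fell by 0.60 (adjusted p = 0.00469), and Dusp3, a small phosphatase of ERK and JNK, rose by 0.61 (adjusted p = 0.00719), a call lost without 8h replicate 2 (0.0506).

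Of 14 genes for MAP kinases, the substrates, 2 rose, 1 fell and 11 were not called at 8 h (median -0.19), led by Mapk11, which encodes p38 beta (0.97 ± 0.07, adjusted p = 0.000994), and Mapk6, which encodes ERK3 (1.25 ± 0.12, adjusted p = 0.00182). Of 11 tested upstream kinases, 1 rose and 4 fell (median -0.06), where 21.7% of all genes were called. Several of these calls were not stable, and the least stable of the 4 falls was lost in 13 of 20 alternative settings. The call of Map2k3 was lost in 9, that of Braf in 3 and that of Map2k5 in 2. Map2k6, an activator of p38, fell by 1.70 at 8 h (adjusted p = 0.00104). Among 8 tested phosphatases of MAP kinases outside the dual-specificity family, 2 rose and 6 were not called (median 0.17). The tyrosine phosphatase gene Ptpn7 rose by 2.62 (adjusted p = 0.000387), with 1 of 2 untreated arrays well above background and a value between 0.99 and 2.80 over the alternative settings, and its difference between 8h-2h and 10h cells was -0.58 ± 0.14 (adjusted p = 0.0754). The shares called among the MAP kinases and these phosphatases lie near the 21.7% of all genes.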

How the data were processed

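Total RNA of 8 samples was hybridised to 1-colour Agilent arrays on 1 slide scanned on 1 date. The deposited processed signal is an intensity, which Feature Extraction 11.0.1.1 corrected for background without scaling between arrays, per the file headers. The deposited files also hold other marks of 0 or 1 (well above background, saturated, outlier), and the deposited value table repeats the processed intensity within 0.497%. The labels name Cy5, while the files hold 1 channel under Agilent's green name, which changes no direction. Array coordinates, on mm9, are left out.

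The 75th percentile of each array (309.0 to 392.6 units) was set to 0 on the log2 scale over 59305 of 62976 spots, without 3671 control spots. The 169 to 249 outlier spots per array counted in that percentile and were then left out of the probe values. Signals well above background began at 6.68 to 9.58 units on the replicate 1 arrays and 14.8 to 20.0 units on the replicate 2 arrays. Probes were named through RefSeq accessions (27656 with 1 symbol, 28025 with none). Probes had to be well above background on both arrays of some group (30329 kept), and the brightest kept probe stood for its gene (22687 genes). Group means were fitted over the 8 arrays together with limma 3.58.1 in R 4.3.3 (residual degrees of freedom 4, prior 1.71), with two-sided moderated tests and Benjamini-Hochberg adjustment. Data were read with Python 3.11.15, and the fitting steps were tested on simulated data. Confidence intervals are unadjusted at 95%.

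The alternatives were median centring, quantile normalization, normexp background (offset 50), the deposited value table, no filter or a stricter one, outliers kept, the mean of probes or each probe alone, an intensity trend, only the groups compared, a replicate block, and each array left out. The arrays of a group share a column of the slide and those of a replicate number a row, so column and group cannot be told apart. The genes, the lists of related genes and the markers were chosen with earlier results of these data known. All 10 genes are named. Of each other list, up to 4 called genes with the smallest adjusted p in 8h against 0h or 8h-2h against 10h could be named, or 2 where none was called. Per phosphatase gene, up to 3 nearest profiles are named.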

Additional observations from a re-analysis of the deposited data

How the results depend on the processing

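Over 60 tests of the 10 genes and 1194 alternative values, 1086 kept their direction and their side of the threshold, 55 lost a call, 27 gained one and 26 lay on the other side of 0. These 26 came from 10 tests that were called neither as reported nor in that alternative (adjusted p from 0.469 upwards). Without a filter on dim probes 2303, 3306, 333, 358 and 1069 genes were called for 8h vs 0h, 10h vs 0h, 8h-2h vs 10h, 8h-2h vs 8h and 8h-2h vs 0h, and with only the groups compared 2766, 3981, 327, 325 and 1413, beside 4931, 6330, 1388, 1478 and 3597 as reported. Leaving out 1 array gave 2268 to 4268, 3169 to 5863, 369 to 958, 389 to 1062 and 1193 to 2649 in that order, and 0 to 4 for 10h vs 8h. Median centring shifted the median of all genes by 0.135, 0.188 and 0.112 for 8h, 10h and 8h-2h against 0h and by -0.076 for 8h-2h against 10h. It turned the higher and lower calls to 3038 and 1511 (reported 2329 and 2602), 4859 and 1851 (2977 and 3353), 1871 and 915 (1601 and 1996) and 490 and 683 (736 and 652).

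Same-numbered arrays deviated together from their group means in all 6 pairs of groups (correlations 0.287 to 0.356), but the labels tie the numbers to nothing else. With the replicate block 2820, 3183 and 6286 genes were called for 8h-2h vs 10h, 8h-2h vs 8h and 8h-2h vs 0h. Under the replicate block Dusp9 was called at 8 h (adjusted p = 0.0196), at 10 h (0.00575) and in 8h-2h vs 0h (0.0285), Dusp14 at 8 h (0.0136) and in 8h-2h vs 10h (0.0405), Dusp7 in 8h-2h vs 10h (0.0343) and vs 8h (0.049), Dusp16 in 8h-2h vs 8h (0.0332) and Dusp2 in 8h-2h vs 0h (0.0212). The cause of the changes was not tested. With 2 arrays a group, only large or tight differences could pass.

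The values on the other side of 0 were small. With 1 array left out, the differences between 10h and 8h cells lay between -0.225 and 0.645 for Dusp2, -0.131 and 0.283 for Dusp4, -0.21 and 0.031 for Dusp7 and -0.241 and 0.163 for Dusp10, and the difference of Dusp9 between 8h-2h and 8h cells between -0.131 and 0.18. For Dusp10 the other ranges were -0.229 to 0.175 (8h vs 0h), -0.185 to 0.052 (10h vs 0h), -0.191 to 0.423 (8h-2h vs 10h), -0.23 to 0.383 (8h-2h vs 8h) and -0.258 to 0.356 (8h-2h vs 0h). Median centring gave Dusp10 0.108 at 8 h and 0.121 at 10 h against 0h and 0.014 for 10h vs 8h, quantile normalization 0.117 and 0.104 against 0h, and normexp 0.038 and 0.1 against 0h and 0.062 for 10h vs 8h. With normexp Dusp9 had -0.042 for 8h-2h vs 8h.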
